A study of Mus musculus with 2 samples.

Results

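The mitochondrial carriers of the solute carrier 25 (Slc25) family were followed on 2 arrays of fetal mouse palate. Members were taken by name alone, as every array probe set annotated to a single gene whose symbol was Slc25a plus a number. This gave 93 probe sets of 44 genes, out of 18193 genes named on the array. Total RNA came from palates taken at E18.5, late in embryonic development, from BALB/c fetuses, 1 array for the wild type and 1 for palate labelled Myf5-/-:MyoD-/- on that background. Myf5 and MyoD (gene symbol Myod1) are the transcription factors that commit cells to skeletal muscle, and the series asked about the role of muscle in the developing palate. The labels do not say which parts of these genes were removed, nor whether a sample was a single fetus or a pool. With 1 array per genotype there is no replicate check, so each ratio compares these arrays and carries no p-value.

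Most proteins of this family sit in the inner mitochondrial membrane and exchange metabolites, nucleotides and cofactors between the matrix and the cytosol. The ADP/ATP carriers hand the ATP made by oxidative phosphorylation to the rest of the cell. Slc25a4 (ANT1) is the form that predominates in heart and skeletal muscle, Slc25a5 (ANT2) is the form of most other and of proliferating tissues, and Slc25a31 (ANT4) is found mainly in the germ line. A member that is abundant in muscle can thus be read beside the muscle genes of the same arrays.

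The second array is named by its label only, as the mutant-labelled array, because signals of the targeted genes were close on the arrays. The brighter Myod1 probe set had a wild-type signal of 1937 and a mutant-labelled signal of 1664, and the Myf5 probe set had 517 and 531. The Myf5 probe set and the dimmer Myod1 probe set (282 and 306) stayed below 658, the level from which a gene counts as measured here. All 12 skeletal muscle fibre markers kept signals above 287, the floor under which signals are not ordered here, on the mutant-labelled array. Acta1, skeletal alpha-actin, went from 38273 to 23436, which is at the 98.0th percentile of that array's probe sets. The summed signal of the 12 was 187595 in wild type and 99002 on the mutant-labelled array, and their median log2 ratio was -0.998, from -1.69 (Tnnc2) to -0.55 (Mylpf). All 12 were below 0, except when the arrays were scaled to reference-gene signal, where 7 were. In bulk tissue, fewer cells of a type and less RNA per cell cannot be told apart. Other cell types differed as well: 8 of 8 neuron markers were higher, with summed signals of 48878 and 114663, and 7 of 9 oral epithelium markers were lower (3 with scaling to reference-gene signal), with 136930 and 104113. Of 6 measured mesenchyme and bone markers 4 were lower (median -0.16), with Msx1 at -1.89 and Col1a1 at 0.74, while their summed signals were 185235 and 223731. Ttr, transthyretin, a thyroxine carrier made in choroid plexus and liver, was higher in 4 of 4 probe sets, by 1.36 to 3.45 in log2 ratio, with 349 and 3806 in the brightest. Xist (33803 and 16952) and the Y-linked Eif2s3y (10.8 and 2795, brighter probe set) also differed between the arrays. The Y-linked signal was under the floor in wild type only, while Xist was bright on both arrays. The samples were thus not matched for sex, and the part of this in the other ratios was not tested.

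A signal here is the authors' MAS5 intensity of a probe set after scaling of the arrays to each other. A log2 ratio is the mutant-labelled array minus wild type. A gene is given by its brightest probe set and counts as measured where the brighter array reached 658, the 60th percentile of all probe sets. Signals are compared between arrays, within a probe set or summed over a list. Between genes they serve only to rank brightness, not to compare amounts of RNA. In the order given, the first signal is always the wild type and the second the mutant-labelled array. Scaling to reference-gene signal, an alternative, moved the median of all genes from 0.07 to 0.997, and signs are those of the reported scaling unless stated. Log2 ratios varied between probe sets of a gene with a pooled SD of 0.51 over 4029 genes, which is the only spread these arrays give and does not include differences between animals.

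Myf5 and MyoD bind the E-box, written CANNTG, a word whose matches are the same whichever strand is searched. The stretches upstream of the ADP/ATP carrier pair are shown because the comparison turns on these genes. They are the 250 bases before the annotated start, from RefSeq on GRCm38.p6, read 5′ to 3′ along the gene, with each CANNTG in capitals. The Slc25a4 stretch is chr8:46211063-46211312 on the minus strand, and the Slc25a5 stretch is chrX:36795347-36795596 on the plus strand.
Slc25a4: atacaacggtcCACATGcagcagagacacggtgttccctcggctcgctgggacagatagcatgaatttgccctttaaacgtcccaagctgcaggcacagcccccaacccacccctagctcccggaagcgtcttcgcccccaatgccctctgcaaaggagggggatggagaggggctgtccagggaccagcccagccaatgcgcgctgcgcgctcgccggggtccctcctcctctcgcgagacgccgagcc
Slc25a5: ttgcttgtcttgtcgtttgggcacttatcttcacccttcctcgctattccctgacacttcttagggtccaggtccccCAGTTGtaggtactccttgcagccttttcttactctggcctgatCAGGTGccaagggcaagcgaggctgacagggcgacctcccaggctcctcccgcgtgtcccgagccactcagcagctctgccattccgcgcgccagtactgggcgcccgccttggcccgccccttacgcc
The Slc25a4 stretch held 1 such word and the Slc25a5 stretch 2, and the stretches had a GC content of 64.8% and 61.6%. Among all 32851 upstream stretches of this length 66.2% held at least 1, as did 31 of 43 stretches that belonged to 34 of the Slc25a genes (72.1%). A match describes the letters only.

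Slc25a4 was not lower on the mutant-labelled array. Its brightest probe set had signals of 42591 and 64869, a log2 ratio of 0.61 (1.52-fold higher). Its other measured probe sets gave 34637 and 38858 (0.17) and 25736 and 26628 (0.05). Its dimmest probe set had 168 and 366 and did not count as measured. The 3 measured probe sets thus lay between 0.05 and 0.61 with a mean of 0.27, each of them above the highest of the 12 muscle fibre markers. This order held under all 13 processing settings (with 11 markers left by the strictest filter), where the log2 ratio of Slc25a4 ran from 0.27 (mean over probe sets) to 1.51 and exceeded the median of the muscle markers by 1.27 to 1.61. Scaling by a common factor cannot change such an order, so those settings do not test it. The lowest of the 3 probe sets turned to -0.03 with the deposited scaling, -0.12 with quantile normalization and -0.09 with scaling to reference-gene ratios. The 431 measured genes at least as bright as Slc25a5 had a median log2 ratio of 0.25, and 11.1% of them lay above the value of Slc25a4. All 8 neuron markers were also higher on the mutant-labelled array, and the part of such other cell types in the Slc25a4 value was not tested.

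Slc25a5 had signals of 26874 and 26139 in its brightest probe set, a log2 ratio of -0.04. All 8 of its probe sets were measured, of which 5 were above 0 and 3 below 0, from -0.55 to 0.57 with a mean of 0.09. In 6 of the 8 the name ends in _x_at, the maker's mark for probes that may also bind other transcripts, and without probe sets ending in _x_at or _s_at the gene's value was 0.21. The gene lies on the X chromosome, as do Slc25a14 (0.11) and Slc25a53 (0.40). The 368 measured X-linked genes had a median of 0.14, and the part of the unequal Xist signal in the Slc25a5 value was not tested. Slc25a31, the germ-line form, had 118 and 117, under the floor of 287 on both arrays.

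By their brightest probe sets Slc25a4 exceeded Slc25a5 by 0.65 in log2 ratio, which is under 0.73, the SD that the probe-set spread gives for a difference between 2 ratios. Over all their measured probe sets the means differed by 0.18, and Slc25a4 was the higher in 15 of 24 pairs of probe sets. The ranges of the carriers overlapped, and the size of the difference rests on which probe sets stand for the genes. Against the median of the other 35 measured members (0.04) Slc25a4 was higher by 0.57 by brightest probe sets. In that measure 4 of them, Slc25a46, Slc25a26, Slc25a28 and Slc25a35, lay above it. The excess was 0.37 with quantile normalization and 0.24 with the mean over probe sets. By that mean more members lay above Slc25a4 (0.27), among them Slc25a15 (0.43) and Slc25a39 (0.55). The rank of Slc25a4 thus also rests on the choice of probe sets.

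**Figure D1:**
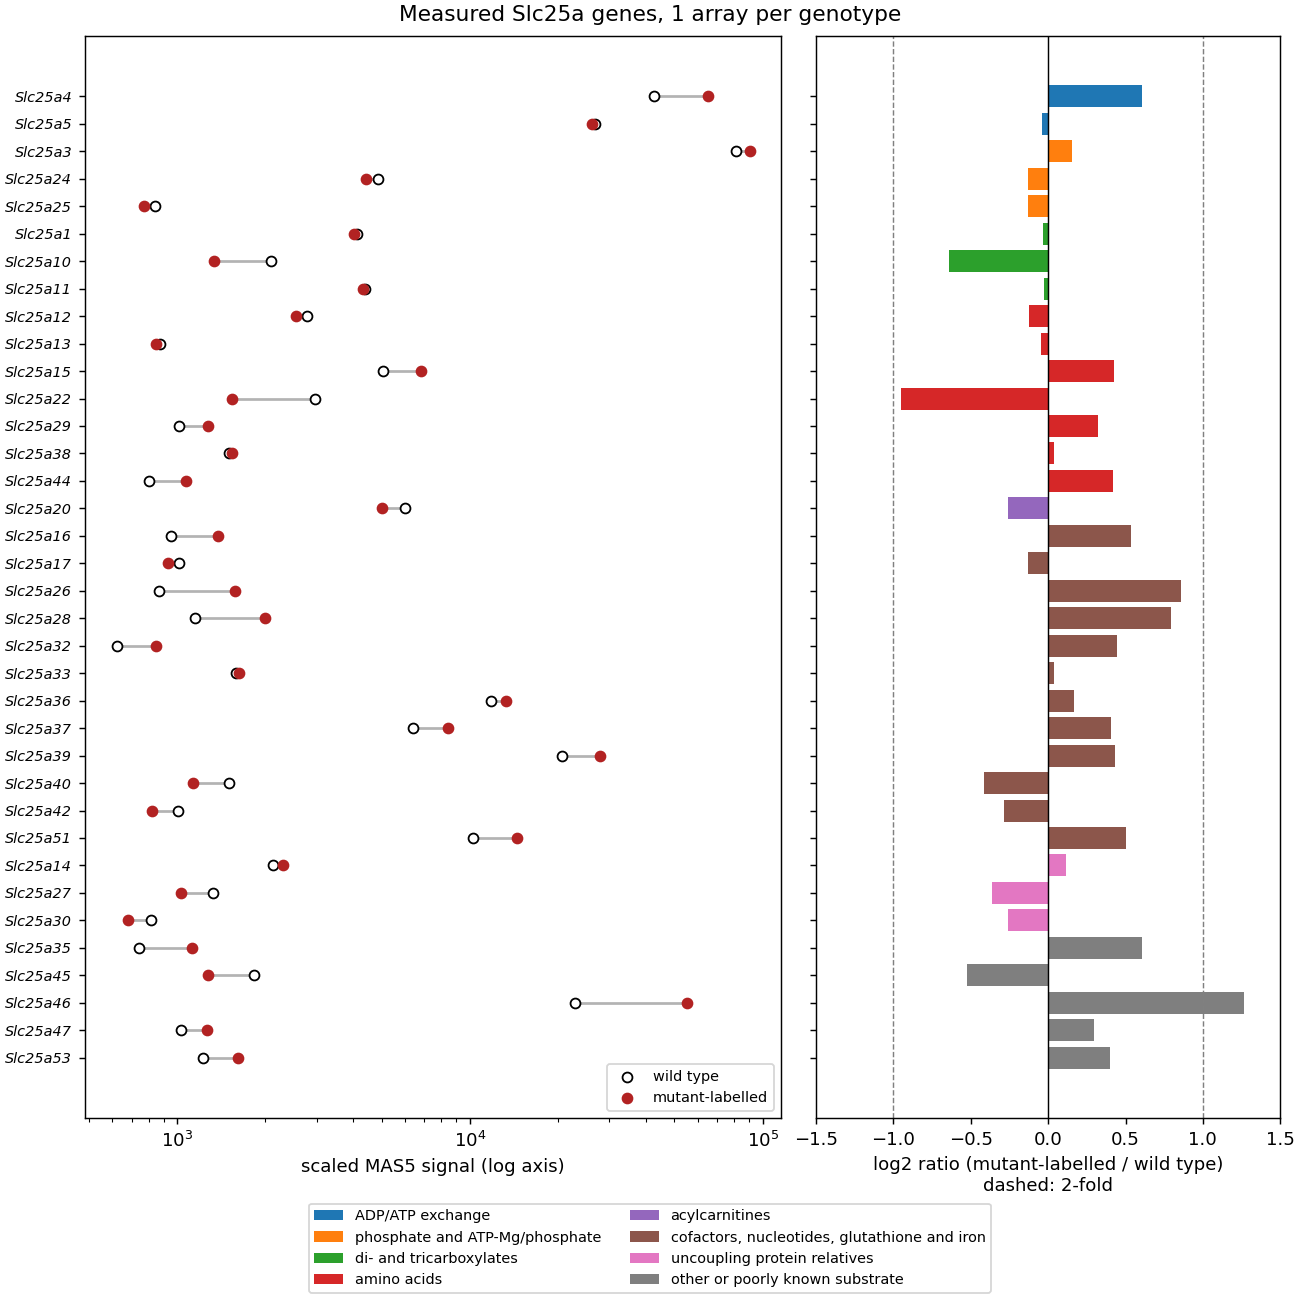
Signals of the 36 measured Slc25a genes (left, log axis, open for wild type and filled for the mutant-labelled array) and their log2 ratios (right, coloured by transported substrate, dashed at 2-fold), by brightest probe set with 1 array per genotype. Slc25a4 has 0.61 and Slc25a5 -0.04, and Slc25a46 (1.27) alone passes 2-fold.

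The family as a whole lay at the level of all genes. Of the 44 genes 36 were measured, with a median log2 ratio of 0.08, while the median of all 11239 measured genes was 0.07. There were 16 members below 0 (44.4%, against 43.6% of all measured genes). None was at least 2-fold lower, where 4.22% of all measured genes were, and 1 was at least 2-fold higher, where 3.52% were. Of the 36 members 35 lay within 2-fold, and 7.74% of all measured genes did not. The middle 50% of members lay between -0.13 and 0.43, and that of all genes between -0.26 and 0.37. The SD over the members was 0.45, against 0.59 over all measured genes. Of the 36 members 27 lay within the SD of 0.51 between probe sets, 6 above it and 3 below it. The matching shares of all measured genes are not given here, so these counts show no lean of the family. The sign of the median moved with the scaling: it was -0.00062 with the deposited scaling, -0.07 with scaling to reference-gene ratios and 1.02 with scaling to reference-gene signal, while the median of all genes moved to -0.01, -0.08 and 0.997.

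The carriers of phosphate, needed beside ADP for ATP synthesis, were close to 0. Slc25a3, the main phosphate carrier, had 81009 and 90243, a log2 ratio of 0.16. Slc25a24 and Slc25a25, calcium-regulated exchangers of ATP-Mg for phosphate, both had -0.13, with signals of 4844 and 4430 and of 842 and 769. These 3 genes thus differed by less than the spread between probe sets. Slc25a23, of the same kind, had 135 and 473 and Slc25a41 had 42.9 and 18.3, and neither was measured.

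Carriers of the citric acid cycle's intermediates were at or below 0, except with scaling to reference-gene signal, where all 3 were above it. Slc25a1, the citrate carrier that exports carbon for lipid synthesis, had 4136 and 4038 (-0.03). Slc25a11, the oxoglutarate carrier of the malate-aspartate shuttle, had 4396 and 4320 (-0.02). Slc25a10, the dicarboxylate carrier, was lower, with 2091 and 1342, a log2 ratio of -0.64. Its second probe set, not counted as measured, had 560 and 173. Slc25a20, which carries acylcarnitines into the matrix for fatty acid oxidation, had 6015 and 5022 (-0.26), and its other probe set gave -0.28.

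Amino acid carriers went both ways, with 3 of 7 measured genes below 0 and a median of 0.04. Slc25a22, a glutamate carrier, had the lowest ratio of the family, with 2973 and 1537, a log2 ratio of -0.95 (1.93-fold lower) from its only probe set. With the deposited scaling it was -1.03 and with reference-gene ratios -1.10, the only member past 2-fold downwards there. The aspartate-glutamate carriers of the malate-aspartate shuttle were near 0 by their brightest probe sets. Slc25a12 (aralar), the form of muscle and brain, had 2776 and 2548 (-0.12), but its other measured probe set had 1221 and 1993 (0.71). Slc25a13 (citrin), the liver form, had 878 and 851 (-0.04). Slc25a15, the ornithine carrier, had 5061 and 6805 (0.43), and Slc25a44, a carrier of branched-chain amino acids, had 801 and 1073 (0.42). Slc25a29, a carrier of basic amino acids, had 1020 and 1277 (0.32), yet its 4 measured probe sets ran from -0.54 to 0.46. Slc25a38, a glycine carrier that serves haem synthesis, had 1504 and 1541 (0.04). Slc25a2 and Slc25a18 were not measured.

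Carriers of cofactors, nucleotides, glutathione and iron were mostly higher, with 9 of 12 measured genes above 0 (56.4% of all measured genes were) and a median of 0.42. Over the scalings 8 to 12 of the 12 were above 0, and the median was 0.17 over 9 genes without probe sets marked as cross-hybridising. Slc25a26, which brings S-adenosylmethionine into the matrix, had 867 and 1575 (0.86), while its second, not measured, probe set had 417 and 340. Slc25a28, mitoferrin-2, an iron importer of most tissues, had 1154 and 1999 (0.79). Its relative Slc25a37, mitoferrin-1, which supplies iron for haem in red cell precursors, had 6388 and 8459 (0.41). The 2 measured erythroid markers beside them were below 0 in every scaling but that to reference-gene signal, with Alas2 at -0.22 and Slc4a1 at -0.46, and Hba-a1 and Epb42 were not measured. With the mean over probe sets 1 of these 2 markers was above 0 and 1 below it (median -0.095). Slc25a39, which imports glutathione, had 20730 and 27920 (0.43), and its other measured probe sets gave 0.28 and 0.94. Its paralog Slc25a40 had 1512 and 1135 (-0.41), so the glutathione carriers differed in sign, except with scaling to reference-gene signal, where Slc25a40 had 0.49. Slc25a51, the NAD carrier, had 10261 and 14524 (0.50), with 0.35 in its other measured probe set.

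The other members of this group were within 0.55 of 0. Slc25a16 had 955 and 1382 (0.53) and Slc25a32, linked to folate and flavin transport, 623 and 847 (0.44). The pyrimidine nucleotide carriers Slc25a36 and Slc25a33 had 0.17 and 0.04, and the 3 probe sets of Slc25a36 ran from -0.23 to 0.17. Slc25a17, a carrier of the peroxisome and not the mitochondrion, had -0.13, and Slc25a42, a coenzyme A carrier, had -0.29.

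Relatives of the uncoupling proteins showed small ratios. Slc25a14 had 2127 and 2302 (0.11), Slc25a30 had 818 and 683 (-0.26) and Slc25a27, a form known from brain, had 1330 and 1034 (-0.36). A second probe set of Slc25a27 just reached the measured level (312 and 659) and gave 1.08, the widest gap between probe sets in the family. The uncoupling proteins themselves belong to the family under other symbols: Ucp1, the heat-producing protein of brown fat, was under the floor on both arrays and Ucp3 had 201 and 353, neither of them measured. Among the brown fat markers Prdm16 (1.04) and Fabp4 (0.40) were measured, and Cidea, Adipoq, Elovl3 and Cox7a1 were not.

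Slc25a46 was the member with the largest difference. It lies in the outer mitochondrial membrane, takes part in mitochondrial shape and lipid transfer rather than in metabolite exchange, and is mutated in optic atrophy with neuropathy. Its brightest probe set had 22925 and 55188, a log2 ratio of 1.27 (2.41-fold higher), above 98.5% of all measured genes. Its other probe set had 3311 and 6077, a log2 ratio of 0.88. Both probe sets were thus higher on the mutant-labelled array. Over the 13 settings the gene ran from 1.06 (quantile normalization) to 2.17 and was past 2-fold in each. The 8 neuron markers, which ran from 0.56 (Tubb3) to 1.75 (Elavl4), were higher on the same array, and their part in the Slc25a46 value was not tested.

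Remaining members of less known substrate comprised Slc25a35 with 740 and 1127 (0.61), Slc25a45 with 1835 and 1276 (-0.52), Slc25a47 with 1036 and 1270 (0.29) and Slc25a53 with 1224 and 1611 (0.40). The second probe set of Slc25a53 gave -0.35. Slc25a34, Slc25a48 and Slc25a54 were not measured, which with Slc25a2, Slc25a18, Slc25a23, Slc25a31 and Slc25a41 makes the 8 members below the measured level. The brighter array of these 8 reached at most 639, in Slc25a34 (447 and 639).

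**Figure D2:**
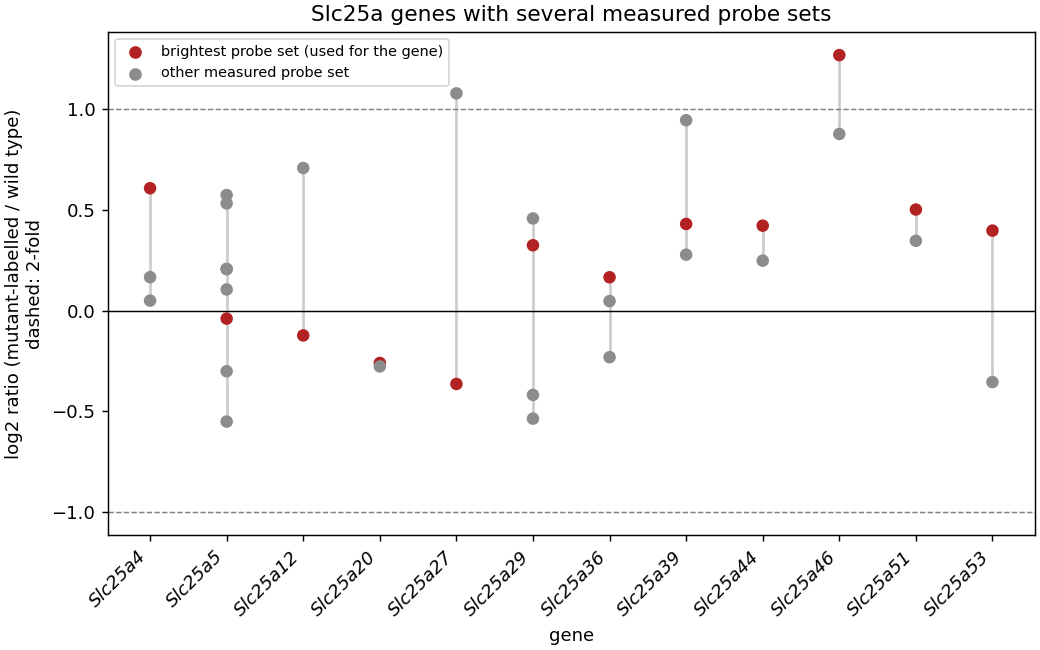
Log2 ratios of every measured probe set of the 12 Slc25a genes that have several, with the brightest in red, the others in grey and dashed lines at 2-fold. The probe sets of 6 genes lie on both sides of 0, among them those of Slc25a5 and Slc25a27, while the 3 of Slc25a4 and the 2 of Slc25a46 lie above 0.

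Probe sets of the same gene disagreed in sign in 6 of the 12 members that had several, namely Slc25a5, Slc25a12, Slc25a27, Slc25a29, Slc25a36 and Slc25a53. Over all genes with several measured probe sets the share was 49.3%. Slc25a4, Slc25a39, Slc25a44, Slc25a46 and Slc25a51 were above 0 and Slc25a20 was below 0 in every measured probe set. The 21 members in the upper 25% of signals by their mean had a median of 0.04, against 0.10 over 7339 such genes. The 15 dimmer members had 0.29, against -0.02 over 3900 such genes.

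Proteins that work with the carriers were described from lists of their partners. The machinery that imports carriers into the inner membrane was near 0, with a median of 0.11 over 13 measured genes, of which 5 were below 0 and none was past 2-fold. That median was -0.02 with the mean over probe sets, -0.03 with scaling to reference-gene ratios and -0.04 with quantile normalization. It was -0.10 without probe sets ending in _x_at or _s_at, where 7 of 13 were below 0 and 1 was at least 2-fold lower. With scaling to reference-gene signal it was 1.02, and 7 of 13 were at least 2-fold higher, as were 49.8% of all measured genes. Timm22, the pore of the carrier translocase, had 3222 and 2614 (-0.30), Timm10 and Timm8b, chaperones of the intermembrane space, -0.38 and -0.37, and Timm29, a Timm22 partner, 0.58. The 4 measured genes of the outer membrane pores and the pyruvate carrier were above 0 in every scaling. Vdac1 had 34928 and 55274 (0.66), Vdac3 0.42, Vdac2 0.17 and Mpc1 0.66. Mtch1 and Mtch2, outer membrane relatives of the carriers, had -0.43 and 0.40.

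Among kinases that use or buffer the exported ATP, the muscle forms of creatine kinase were lower, except Ckmt2 with scaling to reference-gene signal (0.19). Ckm, the cytosolic creatine kinase of muscle and also a muscle fibre marker here, had 12142 and 4645, a log2 ratio of -1.39, the only gene of 7 measured past 2-fold. Ckmt2, the mitochondrial form of striated muscle, which works beside the ADP/ATP carrier, had 1940 and 1184 (-0.71). Ckb and Ckmt1, the forms of brain and other tissues, had -0.01 and 0.02. The adenylate kinases Ak3 and Ak4 had -0.45 and 0.25. By brightest probe sets Slc25a4 (0.61) and Ckmt2, partners in muscle mitochondria, thus stood on different sides of 0 in the reported scaling. The other measured probe sets of Slc25a4 were closer to 0 (0.17 and 0.05), and the lowest had -0.12 with quantile normalization.

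Enzymes fed by other members lay around the level of all genes. In the carnitine shuttle and fatty acid oxidation list, 4 of 10 measured genes were below 0 and none was past 2-fold (median 0.04), with Crat at -0.88 and Cpt1a, which makes the acylcarnitines that Slc25a20 carries, at 0.65. Its median was -0.02 with the mean over probe sets, -0.11 without probe sets ending in _x_at or _s_at and -0.10 with scaling to reference-gene ratios, each with 1 gene at least 2-fold lower, and -0.04 and -0.06 with the deposited scaling and quantile normalization. The malate-aspartate shuttle enzymes had a median of 0.19, with Got1 at 0.44, Mdh1 0.33, Mdh2 0.06 and Got2 -0.10. That median turned to -0.11 with the mean over probe sets (3 of 4 below 0), and to -0.02 both with quantile normalization and without probe sets ending in _x_at or _s_at. Genes of mitochondrial content and biogenesis went both ways, with 8 of 12 measured genes below 0 and a median of -0.18. Hspd1, the matrix chaperonin, was 2.08-fold lower and Polg had -0.92, Ppargc1b had -0.68, whereas Nrf1 had 0.79. With the mean over probe sets this median was 0.01 with 6 of 12 below 0, and with scaling to reference-gene signal 0.73 with 2 of 12.

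**Figure D3:**
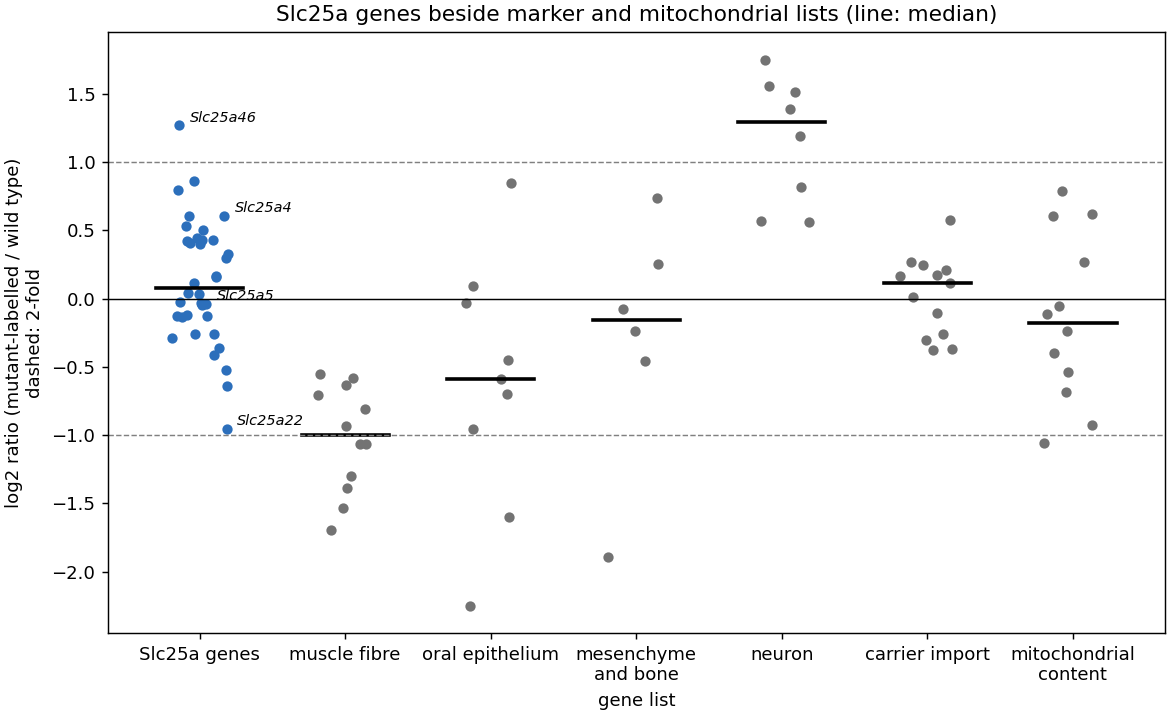
Log2 ratios of the measured Slc25a genes (blue) beside markers of muscle fibre, oral epithelium, mesenchyme with bone and neuron, the carrier import machinery and genes of mitochondrial content (grey), each point a gene, each line a list's median. The Slc25a median is 0.08 and the muscle fibre median -0.998, and Slc25a4 lies above all 12 muscle markers.

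**Figure D4:**
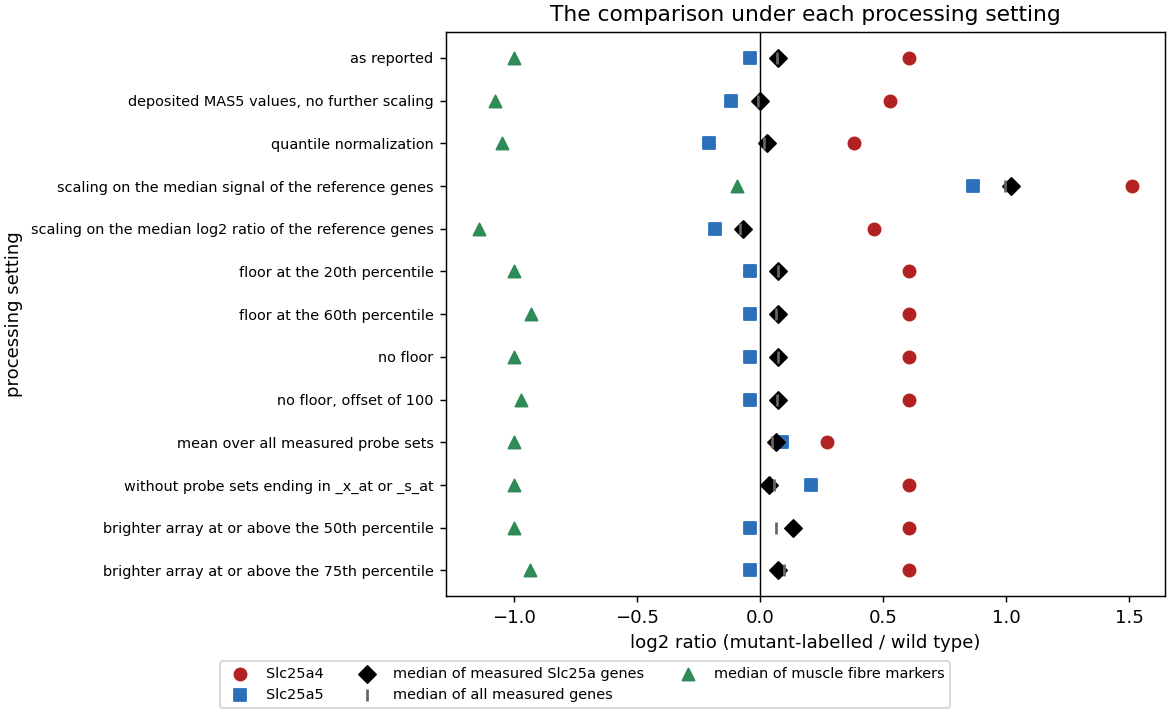
Log2 ratios of Slc25a4, Slc25a5 and the medians of measured Slc25a genes, all measured genes and muscle fibre markers under 13 processing settings. The Slc25a median lies within 0.07 of that of all genes in each setting, and Slc25a4 lies to the right of Slc25a5 and of the muscle median throughout. Scaling by a common factor cannot change this order.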

How the data were processed

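The deposited values were linear signal intensities of probe sets on Affymetrix arrays, labelled from 6 µg total RNA per the labels' protocols and made with MAS5 software whose version is not stated, per the submitters' processing notes. The table held 45101 probe sets, 64 of them controls, and the trimmed mean was 1500.01 on both arrays. Platform annotation named 1 gene for 34945 probe sets, several for 932 and none for 9160. All 93 Slc25a probe sets matched RefSeq (GRCm38.p6) by gene ID. Arrays were scaled to each other on the median of probe sets in the upper 50% of both (factors 0.974 and 1.03). Signals below 287, the 40th percentile, were raised to it before log2. No test was possible with 1 array per genotype, whose number limits the precision. Sizes were counted at 2-fold. All measured members are named, and up to 4 of a companion list by size of ratio plus the furthest the other way; Ckb and Ckmt1 were added after their values were seen. Members and lists were chosen with earlier results of these data known. The alternatives, 12 of them besides 1.5-fold and 3-fold rules, covered scaling, floor, probe set and filter. Steps were tested on simulated data. Python 3.11.15, numpy 2.4.6, pandas 2.3.3 and matplotlib 3.10.9 were used.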

Additional observations from a re-analysis of the deposited data

How the results depend on the processing

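Slc25a4 was above 0, above Slc25a5 and above the muscle marker median in all 13 settings. Scaling by a common factor, the floor and the filter cannot change a difference between bright probe sets. Most settings thus do not test the order of Slc25a4 and Slc25a5. The excess of Slc25a4 over Slc25a5 was 0.59 with quantile normalization, 0.40 without probe sets ending in _x_at or _s_at and 0.18 with the mean over probe sets. In the other settings it was 0.65. The excess over the muscle marker median, a comparison added after seeing the data, ran from 1.27 to 1.61. Scaling to reference-gene signal moved the median of all genes from 0.07 to 0.997. Under it Slc25a4 had 1.51, Slc25a5 0.86 and the family median 1.02, with 1 of 37 measured members below 0. There 19 of the 37 were at least 2-fold higher, as were 49.8% of all measured genes. Scaling to the log2 ratios of the 12 reference genes (median 0.13, Eef2 at -1.52) put the family median at -0.07 (-0.0676). Slc25a22 passed 2-fold downwards there and with the deposited scaling, 1 member lower in each. The filter at the 75th percentile left 10 of 24 members below 0. At 1.5-fold 2 members were lower and 5 higher, and at 3-fold 0 were higher. The shares of all measured genes at these folds are not given here, so these counts show no lean of the family. Of 392 values of the other members under alternatives 35 moved by the SD between probe sets or more, 34 of them with scaling to reference-gene signal, and 24 had another sign than reported, 14 of them with that scaling. The number of arrays limits all values, and signals under the floor have no order.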

Other observations

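The measured level left out 8 members, whose signals ran from under the floor to just below that level. Slc25a54 had a wild-type signal of 29.7 and a mutant-labelled signal of 90.9, and Slc25a18, a second glutamate carrier, had 371 and 142. A probe set annotated to both Slc25a37 and Gm16867, which the choice of single-gene probe sets left out, had 20.1 and 28.0.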
